A study of Mus musculus with 4 samples.

Results

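Endothelial cells line blood and lymph vessels, and the genes described here are 34 that mark these cells or encode the receptors, ligands and factors through which vessels form and are maintained. They were taken from a list of symbols and matched to the gene names on the arrays, with older names allowed where a gene had been renamed (Pecam for Pecam1, Xlkd1 for Lyve1, Edg1 for S1pr1). By name, 38 of the 41174 probes outside controls belonged to these genes, and 26 of the 34 genes were measured above background, out of 34725 genes measured in all. Erg and Sele had probes that were well above background on 1 of 4 arrays in Cdc25a;neu tumours and on 0 of 4 in neu tumours, and were left out. Angpt2, Angpt1 and Nrp1 stood on the arrays under other names and were found only through their accessions, so their values are given but they are in no count. For Esam, Egfl7 and Ptprb no probe was matched.

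The tumours came from female FVB/N mice aged 26 weeks. In 2 mice the MMTV-cdc25a and MMTV-neu transgenes were combined (Cdc25a;neu), and 2 mice carried MMTV-neu alone (neu). All tumours were of stage T1, under 1 cm. The mouse mammary tumour virus promoter drives both transgenes mainly in mammary epithelium, so the vessel cells in the tumours are host cells that are not its main target, and neu, the rat form of the receptor gene Erbb2, is shared by both groups. Each Cdc25a;neu tumour was hybridised with 1 neu tumour on 2-colour Agilent arrays, and each of the 2 pairs was run again with the dyes exchanged, which gave 4 arrays. The 2 arrays of a pair hold the same RNA, so the pair is the replicate (n = 2), and the label "array with Cdc25a;neu in Cy5" or "in Cy3" names the dye. Ratios are log2 of Cdc25a;neu over neu, and levels are log2 of the normalised signal of 1 tumour, the mean of its 2 arrays.

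Blood vessels grow mainly under the control of VEGF ligands, which bind the receptor kinases KDR, FLT1 and FLT4 on endothelial cells, and of the angiopoietins, which bind the receptor kinase TEK and thereby act on vessel stability. Endothelial cells are held together by junction proteins such as VE-cadherin (Cdh5) and PECAM1. Growing tumours need such vessels for oxygen and nutrients, and mammary glands have them in both the epithelial and the fatty part.

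Signal well above background was seen for 78.5% to 92.2% of spots in the Cdc25a;neu channel and for 82.7% to 85.2% in the neu channel. The number of arrays and mice, not counting error, limits the precision. The probe named Cdc25a gave a log2 ratio of 0.09 (pair 1) and of 0.01 (pair 2). The files do not say whether it reads the transgene, so it does not check the labels. Erbb2 gave 0.45 and 0.85, and the files do not say whether its probe reads the neu transgene. The luminal epithelial genes, such as Krt8 and Krt18, were detected in every tumour: 8 of 10 were measured, with summed linear signals of 32834 and 37599 in Cdc25a;neu tumours and 36146 and 40102 in neu tumours. Krt18 was lower on all 4 arrays, with a mean ratio of -0.16.

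With the processing used here, the VEGF receptor gene Kdr had the largest ratio among the 26 genes, and no endothelial gene passed the test across all genes. With limma, 0 of 26 had an adjusted p under 0.05, and the same held for 0% of all 34725 genes. At an unadjusted p under 0.05 there was 1 of 26, Kdr, against 9.57% of all genes. The ratios ran from -0.10 to 0.26, with a median of 0.07 against 0.00 for all genes. By pair, the median was 0.03 (pair 1) and 0.11 (pair 2). The smallest adjusted p of the 26 was 0.483 (limma, Benjamini-Hochberg over all genes). With the scanner's processed signals and loess, the ratios ran wider, from -0.33 (Edn1) to 0.42 (Pecam1). Their median was then 0.10 against 0.01 for all genes. Pecam1 and Acvrl1 (0.40) then stood above Kdr (0.35), as they did with the scanner's log ratio and in the authors' deposited table. The cause of the wider range was not tested. In a fit that took the 4 arrays as the units with the pair as a random block, 926 of all genes and 0 of the 26 passed.

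Counted by direction, 6 of 26 genes were higher in Cdc25a;neu tumours on all 4 arrays, where 14.5% of all genes were. They were Kdr, Robo4, Vegfc, Ednrb, Pecam1 and S1pr1. Only Edn1 was lower on all 4 arrays, against 12.6% of all genes. Averaged within pairs, 19 of 26 were higher in both pairs, where 31.6% of all genes were, and 1 of 26 was lower in both, where 28.3% of all genes were. Some of the 19 were higher only by values near 0, such as Lyve1 at 0.00048 and Sox17 at 0.0092 in pair 1. Pecam1 passed the background filter mainly through the Cdc25a;neu channel. Where both channels had to be well above background on every array, 23 genes were left without Pecam1, and 5 of them were higher on all 4 arrays. With dim probes kept as well, 28 genes could be counted, and 6 of them were higher on all 4 arrays. The 2 arrays of a pair, which hold the same RNA, differed by a median of 0.114 in pair 1 and 0.115 in pair 2 for these genes, and by 0.113 and 0.111 for all genes. The median size of the mean ratio, which averages 4 arrays, was 0.0758 for these genes and 0.0626 for all genes. In bulk tumour RNA, a different number of endothelial cells and a different amount of RNA per endothelial cell cannot be told apart.

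**Figure D1:**
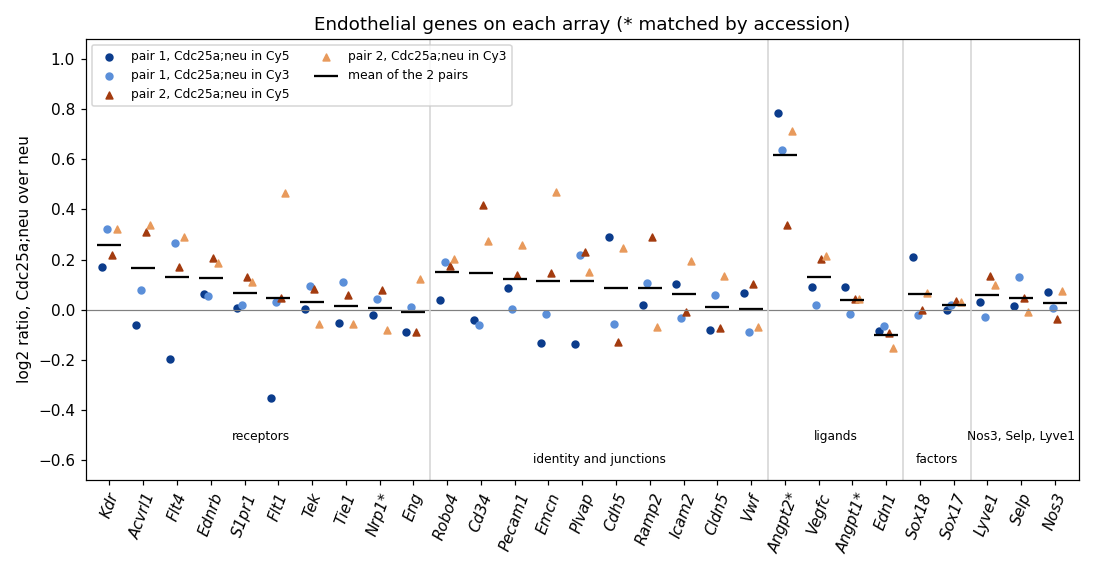
Log2 ratio of Cdc25a;neu over neu (vertical axis) for each measured endothelial gene, grouped by role; circles are the arrays of pair 1 and triangles those of pair 2, the shade gives the dye, and the bar is the mean of the 2 pairs. Apart from Angpt2 at 0.62, the means lie between -0.10 and 0.26, and many genes have arrays on both sides of 0.

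Among the VEGF receptors, Kdr encodes VEGFR2, the main signalling receptor for VEGF-A. Its level was 7.61 and 8.91 in Cdc25a;neu tumours (pairs 1 and 2), against 7.36 and 8.64 in neu tumours. In each pair the Cdc25a;neu tumour was higher, but the groups overlapped, because both tumours of pair 2 lay above both tumours of pair 1. In pair 1 the arrays with Cdc25a;neu in Cy5 and in Cy3 gave ratios of 0.17 and 0.32. The same arrays of pair 2 gave 0.22 and 0.32. The mean was 0.26 ± 0.02 (SD, n = 2), a 1.20-fold higher signal, with a 95% interval of 0.11 to 0.41. Its limma adjusted p was 0.483, and lay between 0.058 (the 4 arrays with the pair as a random block) and 1.000 over the alternatives. A second Kdr probe was above background on no array and is not used.

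Flt1 encodes VEGFR1, which binds VEGF-A tightly and also exists as a soluble trap. Its level was 7.51 and 8.91 in Cdc25a;neu tumours, against 7.67 and 8.66 in neu tumours, so the Cdc25a;neu tumour was the lower one in pair 1 and the higher one in pair 2. The ratios were -0.35 and 0.03 in pair 1 and 0.05 and 0.47 in pair 2. Their mean was 0.05 ± 0.30 (SD, n = 2), with a limma adjusted p of 0.927. The sign turned without either of the arrays with Cdc25a;neu in Cy3 (-0.05 without that of pair 1 and -0.06 without that of pair 2). The spread between the arrays was larger than the mean. A probe for clone 1200012B22, also named Flt1, gave -0.23 and 0.17 in the 2 pairs, and one for clone D230005G05 gave 0.02 and 0.04.

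Flt4 encodes VEGFR3, the VEGF-C receptor of lymphatic and sprouting endothelium, and gave 0.03 in pair 1 and 0.23 in pair 2. The co-receptor gene Nrp1, matched by accession, gave 0.01 and 0.00, and a second probe of similar brightness gave -0.20 and 0.07. Tek, the angiopoietin receptor TIE2, had levels of 7.24 and 7.72 in Cdc25a;neu tumours, against 7.19 and 7.70 in neu tumours. The groups overlapped, and its ratios were 0.00 and 0.09 in pair 1 and 0.08 and -0.06 in pair 2, a mean of 0.03 ± 0.02 (SD, n = 2). The other Tek probe gave 0.09 and -0.06 in the 2 pairs. Tie1, the related orphan receptor that modulates TIE2 signalling, gave 0.03 and 0.00 and was above background on 2 of 4 arrays in neu tumours.

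The TGF-beta family receptor Acvrl1 (ALK1), which endothelial cells use for BMP9, gave 0.01 in pair 1 and 0.32 in pair 2. Its co-receptor endoglin, encoded by Eng, gave -0.04 and 0.02. Ednrb, an endothelin receptor that on endothelium promotes nitric oxide release, had levels of 7.41 and 7.17 in Cdc25a;neu tumours, against 7.35 and 6.98 in neu tumours. The Cdc25a;neu tumour was higher in each pair, and the groups overlapped. The 4 ratios of Ednrb were 0.06 and 0.06 in pair 1 and 0.21 and 0.19 in pair 2, a mean of 0.13 ± 0.10 (SD, n = 2). S1pr1, the sphingosine 1-phosphate receptor that stabilises junctions, gave 0.01 in pair 1 and 0.12 in pair 2. In all, 7 of the 9 receptor genes in the counts were higher in both pairs, where 31.6% of all genes were, and 0 were lower in both, where 28.3% of all genes were. Some of these signs rest on values near 0. Tie1 was at 0.0019 and Tek at 0.014 in pair 2, and Acvrl1 at 0.0081 and S1pr1 at 0.012 in pair 1. Arrays of the same RNA differed by a median of 0.114 in pair 1 and 0.115 in pair 2.

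The ligand genes held the largest value. Angpt2 encodes angiopoietin-2, which endothelial cells release and which in many settings opposes TIE2 activation by angiopoietin-1. Its level was 8.15 and 8.17 in Cdc25a;neu tumours, against 7.44 and 7.65 in neu tumours, so that the Cdc25a;neu tumours stood above the neu tumours without overlap, as 8.45% of all genes did. Its 4 ratios were 0.78 and 0.64 (pair 1) and 0.34 and 0.71 (pair 2). On average the ratio was 0.62 ± 0.13 (SD, n = 2), a 1.53-fold higher signal, with a 95% interval of 0.38 to 0.86. Its limma adjusted p was 0.445. Angpt2 passed under 2 alternatives. Its limma adjusted p was 0.000408 when each array was centred on its median in place of loess, where 1054 of all 34725 genes passed. It was 0.0258 when the 4 arrays were the units with the pair as a random block, where 926 of all genes passed. That second fit counts dye-swapped arrays of the same RNA as samples. Over all alternatives its mean ratio lay between 0.52 and 0.86, and its largest adjusted p was 0.848.

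Angpt1, the activating ligand of TIE2, gave 0.04 in pair 1 and 0.04 in pair 2, and its second probe gave 0.01 and 0.03. Vegfc, the ligand of VEGFR3, had levels of 7.40 and 7.42 in Cdc25a;neu tumours, against 7.34 and 7.21 in neu tumours. Here the groups did not overlap, but the lowest Cdc25a;neu tumour and the highest neu tumour were only the 2 of pair 1, 0.06 apart. The ratios of Vegfc were 0.09 and 0.02 in pair 1 and 0.20 and 0.21 in pair 2, a mean of 0.13 ± 0.11 (SD, n = 2). Edn1 encodes endothelin-1, a vasoconstrictor made by endothelium and by other cells. It was the only one of the 26 lower on all 4 arrays, with pair ratios of -0.08 and -0.12. Its mean of -0.10 became -0.33 with the scanner's processed signals and loess.

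Robo4, an endothelial guidance receptor of the roundabout family, had levels of 8.65 and 9.06 in Cdc25a;neu tumours, against 8.53 and 8.87 in neu tumours. The Cdc25a;neu tumour was higher in each pair, and the groups overlapped. The 4 ratios of Robo4 were 0.04 and 0.19 (pair 1) and 0.18 and 0.20 (pair 2), with a mean of 0.15 ± 0.05 (SD, n = 2) and a limma adjusted p of 0.532.

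Pecam1, the junction protein CD31 that is widely used to stain vessels, was close to background. The probe exceeded background on 3 of 4 arrays in Cdc25a;neu tumours and on 1 of 4 in neu tumours, so that it entered the counts mainly through the Cdc25a;neu channel. Levels were 6.18 and 6.38 in Cdc25a;neu tumours, against 6.13 and 6.19 in neu tumours, and the groups overlapped. Its ratios were 0.09 and 0.0046 on the arrays of pair 1 and 0.14 and 0.26 on those of pair 2. The mean ratio was 0.12 ± 0.11 (SD, n = 2), with 0.05 in pair 1 and 0.20 in pair 2, and a limma adjusted p of 0.628. In the authors' deposited table the same spot gave 0.57, and with the scanner's processed signals and loess it gave 0.42. Cdh5, VE-cadherin of the adherens junction, had levels of 7.05 and 7.88 in Cdc25a;neu tumours, against 6.93 and 7.82 in neu tumours. Its groups overlapped too. The ratios of Cdh5 were 0.29 and -0.06 in pair 1 and -0.13 and 0.25 in pair 2, so the 2 arrays of each pair had opposite signs. The mean was 0.09 ± 0.04 (SD, n = 2), and -0.0066 without the array of pair 2 with Cdc25a;neu in Cy3. A second Cdh5 probe gave 0.08 and 0.04 in the 2 pairs.

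Among the other surface and junction genes, Cd34 and Emcn had opposite signs in the 2 pairs. Cd34, a sialomucin of endothelium and of blood progenitors, gave -0.05 in pair 1 and 0.35 in pair 2. Emcn, which encodes the sialomucin endomucin of veins and capillaries, gave -0.08 and 0.31. Plvap, the protein of the diaphragms of fenestrated endothelium, gave 0.04 and 0.19, with arrays of -0.14 and 0.22 within pair 1. For the adhesion molecule Icam2 the values were 0.03 and 0.09, for the tight-junction protein Cldn5 -0.01 and 0.03, and for the clotting factor Vwf -0.01 and 0.02. None of these 6 genes had all 4 arrays on the same side of 0.

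Ramp2, a partner of the adrenomedullin receptor in endothelium, was read by 3 probes that did not give the same picture. The brightest, for clone E330001O17, gave 0.06 in pair 1 and 0.11 in pair 2. The probe for the RefSeq transcript gave -0.34 and 0.23. The probe for clone D930029B10 gave ratios of -3.01 and -1.83 in pair 1 and 1.89 and 1.31 in pair 2, opposite in sign between the pairs and far larger than any other probe of these genes. Which transcript the clone probe reads could not be placed with the files. In the counts and medians the brightest probe alone stood for Ramp2, as higher in both pairs, whereas the other probes had opposite signs in the 2 pairs. The mean of Ramp2 was 0.09 with the brightest probe and -0.13 with the mean of all probes.

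**Figure D2:**
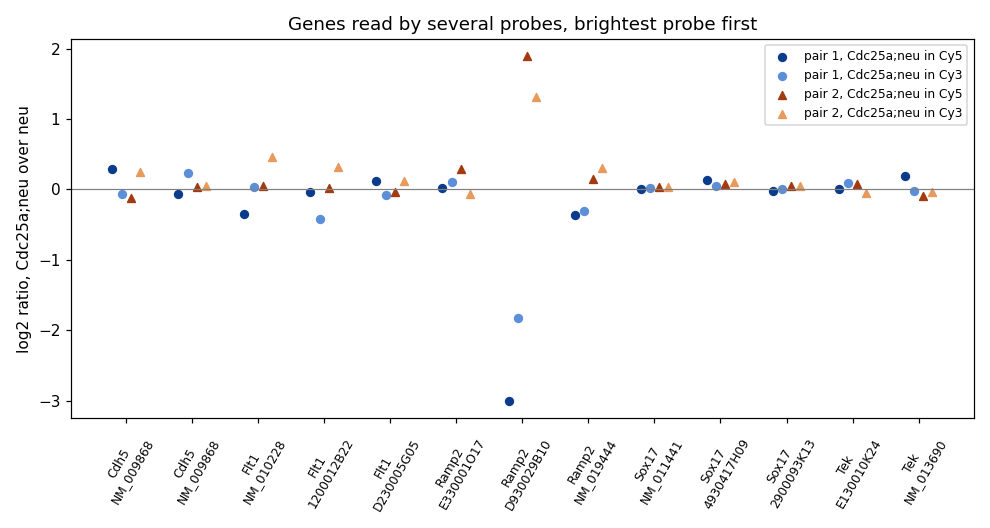
Log2 ratio of Cdc25a;neu over neu on each array (vertical axis) for every kept probe of the 5 genes matched by array name that have several of them, named below by gene and by transcript or clone, brightest first. The probe for Ramp2 clone D930029B10 runs from -3.01 to 1.89, while all others lie between -0.42 and 0.47.

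Of the endothelial transcription factors, Sox17 and Sox18 both act in vessel development. Sox18 gave 0.10 in pair 1 and 0.03 in pair 2, and its Cdc25a;neu tumours, at 7.58 and 7.59, lay above the neu tumours, at 7.49 and 7.55. The closest 2 of these, 7.58 and 7.55, came from different pairs. Its array ratios were 0.21 and -0.02 in pair 1 and -0.0017 and 0.07 in pair 2, so they did not share a sign. Sox17 gave 0.01 and 0.03, and 2 further probes of it gave 0.09 and 0.09, and -0.01 and 0.04. Nos3, the endothelial nitric oxide synthase, gave 0.04 and 0.02. The platelet and endothelial selectin Selp gave 0.07 and 0.02. Lyve1, a hyaluronan receptor of lymphatic endothelium and some macrophages, gave 0.00 in pair 1 and 0.12 in pair 2. In all, the levels of 24 of the 26 genes overlapped between the groups. Vegfc and Sox18 were the 2 whose Cdc25a;neu tumours both lay above, where 8.45% of all genes did, and 0 lay below, where 11.4% of all genes did.

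**Figure D3:**
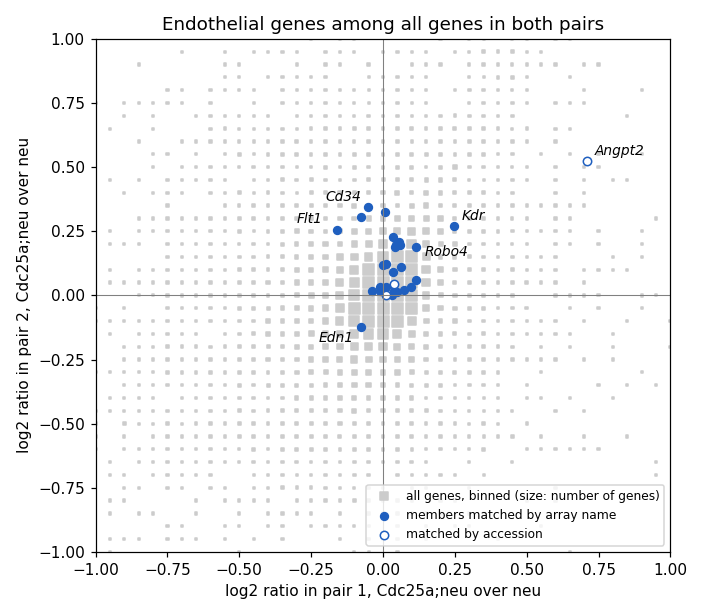
Log2 ratio of Cdc25a;neu over neu in pair 1 (horizontal axis) against pair 2 (vertical axis) for the endothelial genes (blue circles, open where matched by accession) over all genes within 1 of 0 on both axes (grey squares, larger where a bin holds more genes). Cd34 and Flt1 lie left of 0 and above it, Kdr and Angpt2 are the furthest out to the upper right, and Edn1 is the gene to the lower left.

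Several genes differed more between the tumours of the 2 pairs than between the genotypes. In both genotypes, 6 of 26 genes were over 0.5 (log2) higher in pair 2 than in pair 1, where 3.55% of all genes were. Kdr was 1.30 higher in pair 2 than in pair 1 among Cdc25a;neu tumours and 1.28 higher among neu tumours. For Flt1 the differences were 1.40 and 0.99, for Emcn 1.10 and 0.72, for Cd34 0.90 and 0.51, for Cdh5 0.83 and 0.88 and for Plvap 0.66 and 0.51. Tek was at 0.48 and 0.51. Selp went the other way, with -0.49 and -0.43. Of the 26, 17 were higher in pair 2 in both genotypes, against 35.3% of all genes. The count of 6 became 7 when levels were set by array medians (4.75% of all genes). It was 6 on the arrays with Cdc25a;neu in Cy5 alone (5.18%) and 4 on those with Cdc25a;neu in Cy3 alone (2.66%). Levels were set across arrays here, and a pair is also 2 mice and 2 arrays, so mouse, pair and array cannot be told apart.

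**Figure D4:**
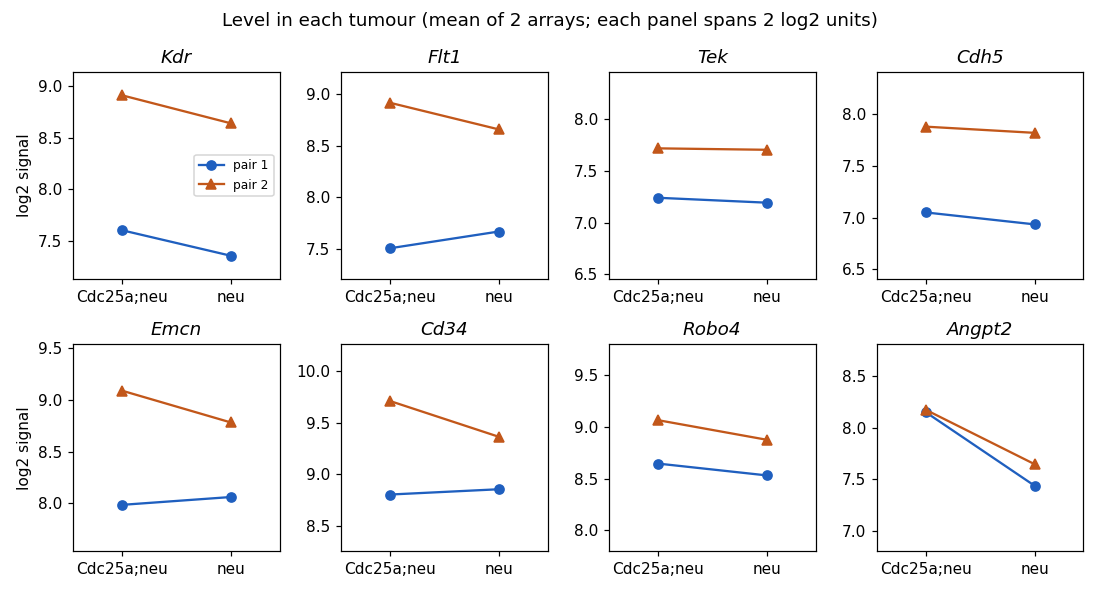
Log2 signal (vertical axis) of 8 endothelial genes in the Cdc25a;neu tumour (left) and the neu tumour (right) of each pair; a line joins the 2 tumours of a pair, and every panel spans 2 log2 units. For all but Angpt2 both pair 2 tumours lie above both pair 1 tumours, and the gap between pairs is wider than the gap between genotypes; for Angpt2 the gap between genotypes is the wider one.

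Upstream sequence from RefSeq (mouse assembly GRCm38.p6, which is not stated to be the build of the arrays) is shown for the 4 of these 6 genes that the sequence table holds, because their levels differed together between the pairs. Each is the 150 bases before the annotated start, 5′ to 3′ on the gene's strand. Capitals mark AGGAAG or CGGAAG or their reverse complements CTTCCT and CTTCCG. These are 6-base forms of the shorter GGAA core that ETS factors such as ERG bind. GGAA between other bases, as in the Kdr sequence, is not marked or counted.
Kdr, chr5:75978456-75978605, minus strand: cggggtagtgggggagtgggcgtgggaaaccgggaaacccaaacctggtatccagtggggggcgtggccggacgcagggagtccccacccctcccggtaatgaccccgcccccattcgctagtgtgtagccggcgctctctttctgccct
Flt1, chr5:147726012-147726161, minus strand: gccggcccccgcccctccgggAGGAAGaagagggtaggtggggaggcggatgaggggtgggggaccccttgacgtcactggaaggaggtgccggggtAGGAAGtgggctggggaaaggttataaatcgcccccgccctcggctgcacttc
Emcn, chr3:137340928-137341077, plus strand: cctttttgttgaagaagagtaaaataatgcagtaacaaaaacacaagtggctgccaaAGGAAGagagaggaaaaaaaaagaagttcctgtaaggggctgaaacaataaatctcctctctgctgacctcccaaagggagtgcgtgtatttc
Cd34, chr1:194938671-194938820, plus strand: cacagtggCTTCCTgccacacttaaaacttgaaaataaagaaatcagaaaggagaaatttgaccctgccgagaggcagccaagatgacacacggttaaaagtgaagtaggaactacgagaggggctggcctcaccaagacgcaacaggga
Flt1 held 2 such matches and Kdr 0 in the 250 bases before the start, and Emcn and Cd34 held 2 and 1. Over the 18 endothelial genes of the list with an entry, 10 had a match in those 250 bases (55.6%), against 39.0% of 27025 genes. The letters say nothing of whether a factor binds there.

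Further genes of the same pathways were read from lists of 6 themes, and with limma 0 of them passed either. At an unadjusted p under 0.05 there were 3 NOTCH and arterial genes, 1 BMP and TGF-beta gene, 1 endothelin and sphingosine phosphate gene and 3 transcription factors, where 9.57% of all genes had one. The counts by direction below stand against 14.5% of all genes that were higher and 12.6% that were lower on all 4 arrays. Of the VEGF ligands and partners, 6 of 8 were measured, 2 of them higher and 1 lower on all 4 arrays. Pgf, which encodes the FLT1 ligand placental growth factor, had a mean ratio of 0.48, and Sh2d2a, an adaptor of VEGFR2, 0.15. Vegfa itself gave -0.17 in pair 1 and 0.37 in pair 2. Of the NOTCH and arterial genes, 12 of 14 were measured, 3 higher and 2 lower on all 4 arrays. The receptor Notch1 was lower on all of them with a mean of -0.76, and the NOTCH target Hey1 with -0.44.

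Among the tip cell and angiogenic genes 10 of 13 were measured, 3 of them higher and 0 lower on all 4 arrays. The C-type lectin Cd93 had 0.32 and the apelin receptor Aplnr 0.09. Of the BMP and TGF-beta genes around Acvrl1, 12 of 13 were measured, 2 higher and 2 lower. Id1, a target of that arm, had a mean of 0.58, with 0.38 in pair 1 and 0.78 in pair 2, and the signal carrier Smad5 had -0.17. For endothelin and sphingosine phosphate genes, 7 of 10 were measured, 2 higher and 1 lower. The receptor S1pr2 had -0.46 and the sphingosine kinase Sphk1 0.46. Of the endothelial transcription factors, 17 of 18 were measured, 4 higher and 1 lower. The flow-responsive factor Klf2 had 1.05, with arrays between 0.27 and 2.51, and Tcf4 had -0.47. The 6 medians ran from -0.03 to 0.07. Many of these genes are also expressed outside endothelium.

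Markers of other cell types that share the tumour with vessels differed between pairs. Of the pericyte and smooth muscle genes, whose cells coat vessels, 12 of 13 were measured, with a median ratio of -0.08 in pair 1 and 0.33 in pair 2. Their summed linear signal was 15192 and 22585 in Cdc25a;neu tumours, against 14466 and 13673 in neu tumours. Kcnj8, a potassium channel of pericytes, had a mean ratio of 0.42, and the smooth muscle myosin Myh11 0.06. The same pair held the higher median in the endothelial genes (0.03 in pair 1, 0.11 in pair 2).

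Leukocyte genes, 13 of 14 measured, summed to 9215 and 36079.8 in Cdc25a;neu tumours, against 11406 and 11287 in neu tumours, with median ratios of -0.05 in pair 1 and 0.12 in pair 2. Cd79a, of the B-cell receptor, was the leukocyte gene higher on all 4 arrays, with a mean of 0.09. Platelet and megakaryocyte genes, 10 of 11 measured, summed to 3150.2 and 4405 in Cdc25a;neu tumours, against 3495 and 3796 in neu tumours. The platelet chemokine Ppbp had a mean ratio of 0.21 and the platelet glycoprotein gene Gp1bb 0.14. Erythroid genes, 5 of 8 measured, summed to 5069 and 18760.2 in Cdc25a;neu tumours, against 6711 and 4622 in neu tumours. Their median ratio was -0.00 in pair 1 and 0.08 in pair 2, and the beta-globin gene Hbb-b1 stood apart from it with -0.44 and 2.16. In these 3 lists, too, the Cdc25a;neu tumour of pair 2 held the largest sum. A linear sum weighs bright genes most, and the median ratios in pair 2 were only 0.12, 0.09 and 0.08. Lyz2 of the leukocyte list and Pf4 of the platelet list also stood apart in pair 2, with values given under other observations. Whether the sums reflect the number of such cells was not tested.

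Fibroblast genes, 8 of 10 measured, summed to 1766 and 8293 in Cdc25a;neu tumours, against 2279 and 4115 in neu tumours. The fibroblast list was divided, with a median ratio of -0.28 in pair 1 and 0.24 in pair 2. On all 4 arrays 3 of its 8 genes were lower, against 12.6% of all genes, and 0 higher, against 14.5%. Dcn, the matrix proteoglycan decorin, had a mean ratio of -0.83 and Pdgfra -0.29, whereas the largest mean ratio of the list was 0.62. Fat cell genes, 9 of 10 measured, summed to 2752 and 2988 in Cdc25a;neu tumours, against 6976 and 15183 in neu tumours. On all 4 arrays 6 of the 9 were lower, against 12.6% of all genes, and 1 was higher, against 14.5%. Lymphatic genes other than the listed ones, 7 of 9 measured, had a median of 0.04. Because an offset of 50 was added to the signals, no list could sum to 0, so the sums do not show that a cell type was present. The part that the other cell types had in the endothelial values was not tested.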

How the data were processed

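RNA of 4 mammary tumours was amplified from oligo-dT primers and hybridised as 2 dye-swapped pairs, per the labels' protocols. The deposited scanner files hold spot intensity values, local background medians, log10 ratios of red over green and flags for outliers and background, per the file headers. The submitters' processing notes name Agilent Feature Extraction 7.2, whereas the file headers give 7.5.1. The authors' deposited table holds natural log ratios of red over green: slopes against the scanner's log10 ratios were 2.27 to 2.29 on bright spots. Its centring is unknown, and its column medians were 0.0209, 0.0007, 0.0209 and 0.0078. The genome build and annotation are not given in the sources used here.

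Intensities were background-corrected by normexp (offset 50) and loess-normalised within arrays with limma 3.58.1 (R 4.3.3). Control and outlier-flagged spots were dropped, spots of a probe were averaged, and swapped arrays were turned. Probes were kept where 2 or more of the 4 arrays had either channel well above background (37177 probes). The brightest kept probe stood for the gene. Levels of single tumours used Aquantile scaling between arrays. The 2 pair ratios were tested against 0, two-sided, by lmFit and eBayes with Benjamini-Hochberg adjustment over 34725 genes at 0.05. SDs are between the 2 pairs. The p-values and intervals do not rest on that SD alone, because eBayes draws each gene's variance towards a value estimated over all genes. For Kdr the SD was 0.017 and the moderated standard error 0.045, and for Flt1 they were 0.296 and 0.134. The p-values measure only spread between pairs, that of the gene itself and that of all genes. Each array lay on its own slide. The procedure was tested on simulated data.

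Every tumour, array and ratio is given for Kdr, Flt1, Tek, Pecam1 and Cdh5 and for genes with 1 sign on all 4 arrays and a mean of at least 0.1 in size. No endothelial gene had pairs that differed by over 0.5 in the probe that stood for it. Other genes have their pair values. Of each further list, the 2 genes with the largest mean of 1 sign on all 4 arrays are named. The genes, lists and rules were chosen with earlier results of these data known. Values of Vegfa, Krt8, Pf4, Hbb-b1 and Lyz2 were picked after they were seen. Alternatives were tried for background correction, normalisation, the dim-probe filter, the probe rule, the variance model and each array.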

Additional observations from a re-analysis of the deposited data

How the results depend on the processing

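Of the 26 endothelial genes, 18 kept the sign of their ratio under every alternative run and 8 turned under some. In total 21 of 386 ratios turned, and 0 of the 26 genes passed under any alternative. Vwf, at 0.00, became -0.012 without background correction, -0.13 with the scanner's processed signals and loess, -0.13 with the scanner's log ratio, -0.059 with median centring and -0.10 in the authors' deposited table. With median centring Tie1 became -0.070 and Eng 0.057, and with the mean of all probes Ramp2 became -0.13. Leaving out 1 array at a time, Vwf ranged from -0.039 to 0.046, Eng from -0.064 to 0.042, Cldn5 from -0.041 to 0.062, Flt1 from -0.057 to 0.152, Tie1 from -0.025 to 0.057, Ramp2 from -0.0046 to 0.176, Tek from -0.0043 to 0.065 and Cdh5 from -0.0066 to 0.181. The number higher on all arrays used was 7 to 11 with 1 array left out, 11 of them without the array of pair 1 with Cdc25a;neu in Cy5; fewer arrays then have to share a sign. With median centring in place of loess the endothelial median was 0.14, 3 genes were higher and 0 lower on all arrays, and 1054 of all genes passed. With the 4 arrays as units and the pair as a random block 926 of all genes passed; that fit counts dye-swapped arrays of the same RNA as samples. A fit of separate channels per mouse, with no replicate block, called 0 genes. No paired analysis beyond this was possible because the pair is itself the unit of the ratios. The cause of the other changes was not tested. Choosing levels by array medians or by single dye orientations was added after seeing the data. With 2 pairs and a small ratio, a true difference of this size may not be detectable, and probes near background (Pecam1, Tie1) limit it further.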

Other observations

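Single genes outside the endothelial list were also far apart between the pairs. Pf4, the platelet chemokine, which macrophages can also make, had log2 ratios of Cdc25a;neu over neu of -0.29 in pair 1 and 2.34 in pair 2. The beta-globin gene Hbb-b1 gave -0.44 and 2.16, and the lysozyme gene Lyz2, a marker of macrophages and neutrophils, gave -0.45 and 2.03. The dye-swapped arrays of each pair gave the same sign for all 3 genes. Klf2 differed within pair 2, where the array with Cdc25a;neu in Cy5 gave 2.51 and the array with Cdc25a;neu in Cy3 gave 0.57.

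Of the 9 measured fat cell genes, 6 were lower in Cdc25a;neu tumours in both pairs, where 28.3% of all genes were. In both pairs 1 was higher, where 31.6% of all genes were. Cfd, which encodes adipsin, gave -3.55 in pair 1 and -3.54 in pair 2, and Fabp4, a lipid chaperone that capillary endothelium makes as well, gave -2.04 and -2.82. Of all 34725 genes, 0 passed with limma in the same fit, and 3322 had an unadjusted p under 0.05.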
